A study of Mus musculus with 24 samples.

Results

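The transcripts of 8 genes of the Ccm complex and of endothelial lumen formation were followed in mouse amniotic cells, in endothelial-like cells converted from them and in cultured and directly purified endothelium. The members are Ccm2l, Ccm2, Krit1, Pdcd10, Heg1, Rasip1, Arhgap29 and Shank3, 8 of the 22282 genes obtained when the RefSeq transcripts of each symbol were summed. They were taken as a named list that was chosen by FPKM in the 8 groups of these same libraries, so their levels and differences are a description and are given without p-values. All 8 averaged an FPKM of 1 or more and entered the fit of 14964 genes.

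Krit1, Ccm2 and Pdcd10 form the core of the Ccm (cerebral cavernous malformation) complex, an adaptor complex whose loss in endothelium causes dilated, leaky vessels. Heg1 is the transmembrane receptor that anchors Krit1 at endothelial junctions, and Ccm2l is a paralogue of Ccm2. The complex restrains Mekk3 (Map3k3), which signals through Erk5 to Klf2 and Klf4. Rasip1 is an endothelial effector of the small GTPase Rap1 that acts with the GTPase-activating protein Arhgap29 while vessel lumens open, and Shank3 is a scaffold protein with a Rap1-binding domain that is best known from excitatory synapses.

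There were 24 polyA RNA libraries, 3 in each of 8 groups, all from C57BL/6J mice. MACs are amniotic cells of embryos between E11.5 and E13.5, and Akt-MACs are MACs that received a lentivirus for constitutively active, myristoylated Akt. RACVECs are MACs transduced with lentiviruses for the Ets factors Etv2, Erg and Fli1 and grown under endothelial conditions with an inhibitor of transforming growth factor-β signalling. Akt-RACVECs additionally carried myristoylated Akt, and Sox17-RACVECs additionally carried Sox17. Akt-LECs and Akt-liver ECs are lung and liver endothelial cells (ECs), isolated on beads against CD31 and cultured with the same Akt lentivirus. By the study's methods they were later purified again by FACS for VE-cadherin and CD31. LSECs are liver ECs purified by FACS without culture or transduction. The paper calls the lung ECs and the directly purified liver ECs adult. All cultured ECs thus carry Akt, and a cultured EC group without it is not analysed here. The study's methods count a separately isolated culture of amniotic cells as a biological replicate, but the labels do not state the origin of each library, and the p-values below measure only the spread between these libraries. Values are FPKM, fragments per kilobase of transcript scaled to the library, which leaves read numbers unknown, and a value of 0 gives no upper limit. In bulk RNA, a smaller number of expressing cells and less RNA per cell cannot be told apart.

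In several libraries the transduced genes went against the label. The library labelled Sox17-RACVEC 2 was listed at an FPKM of 0 for Etv2, against 458 and 378 in the other 2 Sox17-RACVEC libraries and between 301 and 859.9 in RACVECs. Erg, also a transduced factor, was only 3.91, 13.8 and 0.90 in the 3 RACVEC libraries and 4.49 and 0 in Sox17-RACVEC 1 and 3, but 387 in the library labelled Sox17-RACVEC 2 and 395 to 1002 in Akt-RACVECs. Sox17 was at 5.09, 40.1 and 200.1 in the 3 Sox17-RACVEC libraries, at 0 in RACVECs and at 12.0 to 83.5 in Akt-RACVECs. The last does not go against the label, as the paper reports that Akt activated Sox17 in these cells. Among groups that did not receive Sox17, it was also at 79.3 to 115.7 in LSECs and 24.5 to 64.0 in Akt-LECs. In Akt-liver ECs it was 82.8, 1.49 and 5.61. The library labelled Sox17-RACVEC 2 also stood apart in that its summed FPKM of 10 endothelial markers was 18052 against 6609 and 5844. Its Akt1 was 1323 against 884 in Sox17-RACVEC 1. Results on Sox17-RACVECs are given with and without it, and its effect on the fit of the other groups is stated. In Akt-LEC 1 and Akt-liver EC 1 the sum of 10 smooth muscle and mesenchymal markers was 3854 and 2552, against 36.2 to 439 in the other 4 cultured EC libraries, and their endothelial sums of 7577 and 12294 were the lowest of their groups. These 2 libraries also had the higher sums of macrophage (517 and 435, at most 2.13 in the other 4) and epithelial markers (177 and 1548, at most 29.8). The same held for hepatocyte (264 and 573, at most 65.1) and neuronal markers (106 and 258, at most 26.7). LSECs carried the markers of other liver and blood cells, with all 7 erythroid markers above 0 (sums of 34826 to 38717), all 8 measured macrophage markers (10041 to 17611) and all 8 hepatocyte markers (3122 to 14377). The 3 Akt-MAC libraries had macrophage sums of 209.7, 4859 and 12649, against at most 0.79 in MACs. Akt1 itself was at 559 and 656 in Akt-liver EC 2 and 3, within the 551 to 694 of MACs and RACVECs, and the deposited values do not separate the transgene from the mouse gene. The part of these cells and libraries in the results below was not tested beyond the values given without them.

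**Figure D1:**
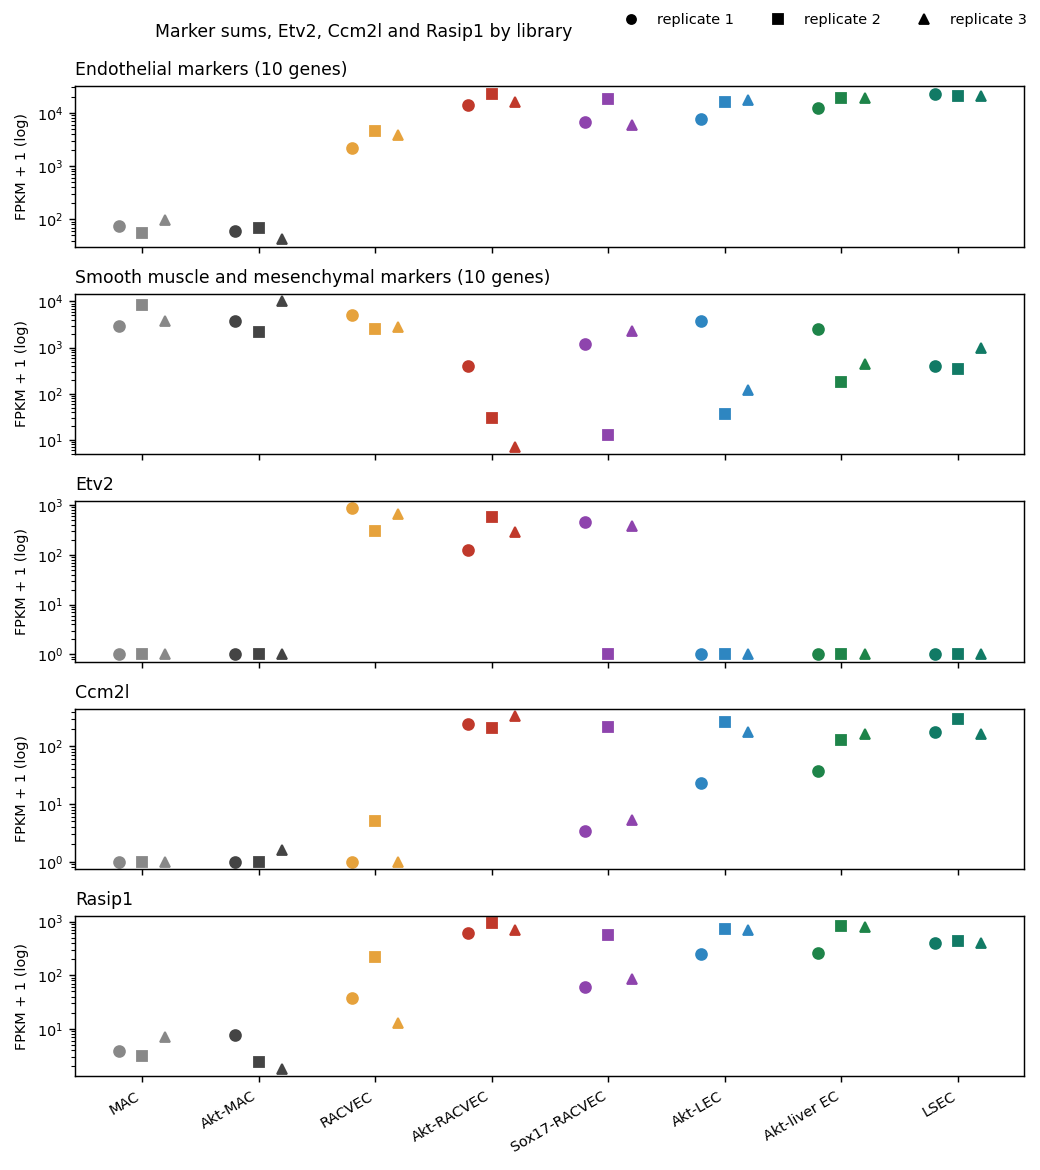
Summed FPKM of 10 endothelial and of 10 smooth muscle and mesenchymal markers, and FPKM of Etv2, Ccm2l and Rasip1, in the 24 libraries. Vertical axes are FPKM + 1 on a log scale, colours are groups and symbols are replicates 1 to 3. The library labelled Sox17-RACVEC 2 lies at 0 for Etv2, at 18052 for endothelial markers and at 221 for Ccm2l.

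On mm9, in the GENCODE M1 annotation, 7 members were located by symbol, all protein-coding genes at separate loci. Ccm2 lies at chr11:6446890-6496747, Krit1 at chr5:3803165-3847487, Pdcd10 at chr3:75320412-75360778, Heg1 at chr16:33684552-33771662, Rasip1 at chr7:52882858-52894463, Arhgap29 at chr3:121656147-121719595 and Shank3 at chr15:89330054-89390692. Pdcd10 is on the minus strand and the other 6 are on the plus strand.

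Promoter windows of 250 bases before the transcription start were available from RefSeq on GRCm38.p6 for 7 members, with 10 windows in all, and Ccm2l had none. The windows of Rasip1 and Shank3 are shown because these 2 genes differed between MACs and RACVECs, and that of Ccm2 because its level hardly varied. Capitals mark GGAA, the core of sites bound by Ets factors, and its reverse complement TTCC. The windows are Rasip1 at chr7:45627287-45627536, Shank3 at chr15:89499358-89499607 and the upstream window of Ccm2 at chr11:6546637-6546886, all on the plus strand and written 5′ to 3′.
Rasip1: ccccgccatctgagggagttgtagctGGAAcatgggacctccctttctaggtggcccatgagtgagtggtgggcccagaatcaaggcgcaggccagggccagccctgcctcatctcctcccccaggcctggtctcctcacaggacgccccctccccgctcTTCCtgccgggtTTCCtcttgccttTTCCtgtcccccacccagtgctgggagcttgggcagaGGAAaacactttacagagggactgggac
Shank3: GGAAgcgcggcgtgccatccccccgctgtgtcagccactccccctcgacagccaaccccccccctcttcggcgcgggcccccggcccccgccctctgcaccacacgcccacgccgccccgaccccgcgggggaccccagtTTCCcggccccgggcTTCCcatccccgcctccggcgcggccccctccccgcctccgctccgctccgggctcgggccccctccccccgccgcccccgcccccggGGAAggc
Ccm2: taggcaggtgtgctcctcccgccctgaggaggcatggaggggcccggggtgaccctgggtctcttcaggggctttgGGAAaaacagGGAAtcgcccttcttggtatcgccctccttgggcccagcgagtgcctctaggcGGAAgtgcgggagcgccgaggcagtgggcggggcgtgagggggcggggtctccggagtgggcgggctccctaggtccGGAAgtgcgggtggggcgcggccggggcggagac

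GGAA was matched 5 times on either strand in Rasip1, 4 times in Shank3 and 4 times in Ccm2. It is present in 93.4% of 32851 windows of this length, with a median of 3 matches, so its presence does not set these genes apart. The longer CCGGAA, which contains GGAA, was matched once in this window of Ccm2, in both windows of Krit1 and in no window of the other 5 genes, against 12.0% of all windows. The windows of Krit1 at chr5:3802931-3803180 and chr5:3802915-3803164 overlap and share a match, so they are not separate occurrences. The Sox letters AACAAT occurred in none of the 10 windows and in 9.42% of all. The Klf letters CACCC were matched 5 times in Heg1, 2 and 3 times in the 2 windows of Arhgap29, 2 times in this window of Ccm2, once in Rasip1 and not in Shank3, Krit1 or Pdcd10, and in 52.0% of all windows. A match of letters is a description of the sequence and does not show binding.

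The members ranged from genes with a nearly constant level to genes whose level differed by orders of magnitude between cell types. Over the 24 libraries the highest FPKM was 1.90 times the lowest for Ccm2, 2.36 times for Krit1 and 4.91 times for Pdcd10. It was 11.4 times for Heg1, 29.1 times for Arhgap29, 246 times for Shank3 and 1183 times for Rasip1, whereas Ccm2l ranged from 0 to 339. The SD of log2(FPKM + 1) was 0.25 for Ccm2 and 0.29 for Krit1, smaller than in all but 2.93% and 6.92% of the 14964 genes. It was 3.53 for Ccm2l, 3.17 for Rasip1 and 2.34 for Shank3, larger than in 99.1%, 98.4% and 93.0% of genes, beside a median of 0.72 over all genes.

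**Figure D2:**
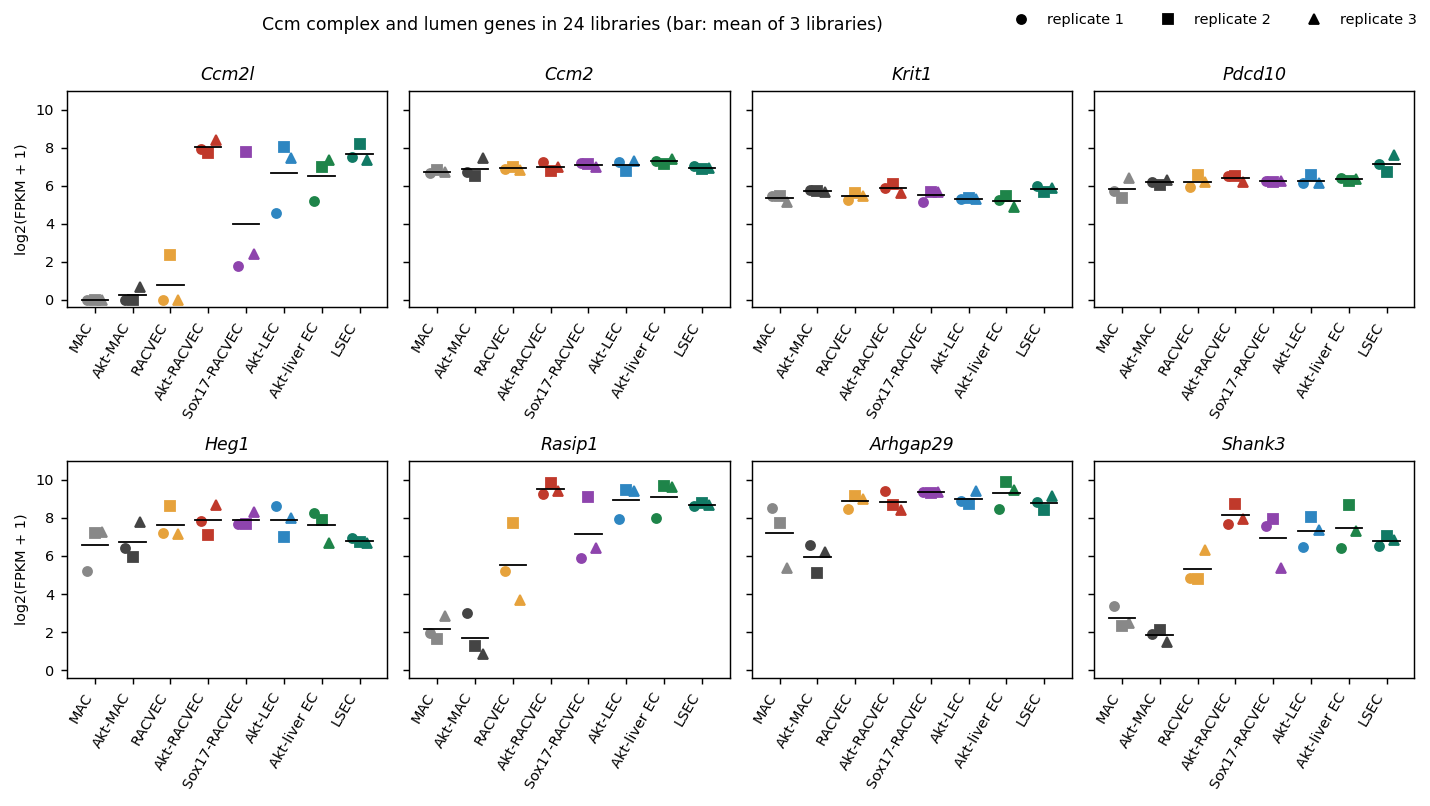
log2(FPKM + 1) of the 8 members in the 24 libraries, with symbols for replicates 1 to 3 and a bar for the mean of the 3 libraries of a group. Ccm2 and Krit1 form nearly flat rows, and so does Pdcd10 apart from higher values in LSECs. Ccm2l is at or near 0 in MACs, Akt-MACs and RACVECs, and Rasip1 and Shank3 are at intermediate levels in RACVECs.

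Ccm2, the adaptor that links Krit1 to Pdcd10 and Mekk3, had its highest mean in Akt-liver ECs (156 ± 14.7, SD, n = 3) and its lowest in MACs (106 ± 5.55). In MACs the 3 libraries had an FPKM of 100.3, 111 and 106, and in RACVECs 119, 126 and 114. These 2 groups did not overlap, and the difference on the log2 scale was 0.17 ± 0.20 (SE). This SE, like those below, comes from the fit over all 8 groups and is not the spread of the 2 groups compared. For Ccm2 the SD was 6.375 in RACVECs and 5.55 in MACs, against 43.7 in Akt-MACs. From the top, the order was Akt-liver ECs, Akt-LECs, Sox17-RACVECs, Akt-RACVECs, Akt-MACs, LSECs, RACVECs and MACs, and only the last step exceeded the larger SD of the 2 neighbours. Of its 3 RefSeq transcripts, the main one held 90.1% of the summed FPKM. The second transcript was at 23.4, 24.7 and 15.6 in MACs and at 14.9, 4.05 and 8.35 in RACVECs. These libraries did not overlap, and this form made up between 14.7% and 23.3% of Ccm2 in MACs and between 3.21% and 12.5% in RACVECs.

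Krit1, which binds Heg1 and Rap1, ranged between group means of 35.6 ± 7.14 in Akt-liver ECs and 57.6 ± 8.93 in Akt-RACVECs. Its RACVEC libraries had 37.0, 47.6 and 43.2 and its Akt-RACVEC libraries 58.1, 66.2 and 48.4. All Akt-RACVEC libraries lay above all RACVEC libraries, by 0.42 ± 0.19 on the log2 scale. The order was Akt-RACVECs, LSECs, Akt-MACs, Sox17-RACVECs, RACVECs, MACs, Akt-LECs and Akt-liver ECs, and no step between neighbours exceeded the larger SD. Of its 3 RefSeq transcripts, the main one held 70.7% of the summed FPKM of Krit1, the second coding one 23.8% and a non-coding one 5.53%.

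Pdcd10, the subunit that joins the complex to the STRIPAK phosphatase complex and its Stk24, Stk25 and Stk26 kinases, stood apart in one group. Its LSEC libraries had 138, 104 and 198, above each of the other 21 libraries, the highest of which was 92.5 in RACVEC 2. The next group mean was 83.9 ± 10.2 in Akt-RACVECs and the lowest 58.8 ± 23.4 in MACs. Between them followed Akt-liver ECs, Akt-LECs, RACVECs, Sox17-RACVECs and Akt-MACs, with means from 79.6 to 72.7 and no step larger than the spread. The LSECs are also the group with erythroid, macrophage and hepatocyte RNA, and its part in the level of Pdcd10 was not tested. On the FPKM scale, which is per length of transcript, Ccm2 exceeded Krit1 in every library, by 1.64 to 6.07 times. Ccm2 exceeded Pdcd10 in all cultured libraries, and the ratio was 0.95, 1.11 and 0.60 in the 3 LSEC libraries.

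Ccm2l separated the groups most sharply. It was listed at 0 in all 3 MAC libraries, at 0, 0 and 0.61 in Akt-MACs and at 0, 4.04 and 0 in RACVECs. In Akt-RACVECs it was 239.9, 212 and 339, in LSECs 179, 293 and 163, in Akt-LECs 22.4, 261 and 177, and in Akt-liver ECs 36.1, 127 and 162. Each library of these 4 groups thus exceeded each MAC, Akt-MAC and RACVEC library, and the order of the 4 means (Akt-RACVECs, LSECs, Akt-LECs, Akt-liver ECs) had no step beyond the spread. The lowest cultured EC values belonged to Akt-LEC 1 and Akt-liver EC 1, the libraries with mesenchymal, macrophage, epithelial, hepatocyte and neuronal markers. In Sox17-RACVECs the values were 2.38, 221 and 4.25, and the high one came from the library labelled Sox17-RACVEC 2. Without it the mean of the group was 3.32 (n = 2) in place of 75.7, and the 2 remaining libraries lay at or near the RACVEC level.

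Set against its paralogue, Ccm2l made up 66.8% ± 5.67 (SD, n = 3) of the summed FPKM of Ccm2l and Ccm2 in Akt-RACVECs and 62.4% ± 8.08 in LSECs. In these 2 groups the paralogue was therefore more abundant per length than Ccm2 in every library, between 57.7% and 72.7% of the sum. Its share was 12.8%, 70.7% and 52.9% in Akt-LECs and 18.7%, 47.3% and 48.7% in Akt-liver ECs. In RACVECs it was 0%, 3.10% and 0%. Over the same 24 libraries Ccm2 itself varied by 1.90 times.

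**Figure D3:**
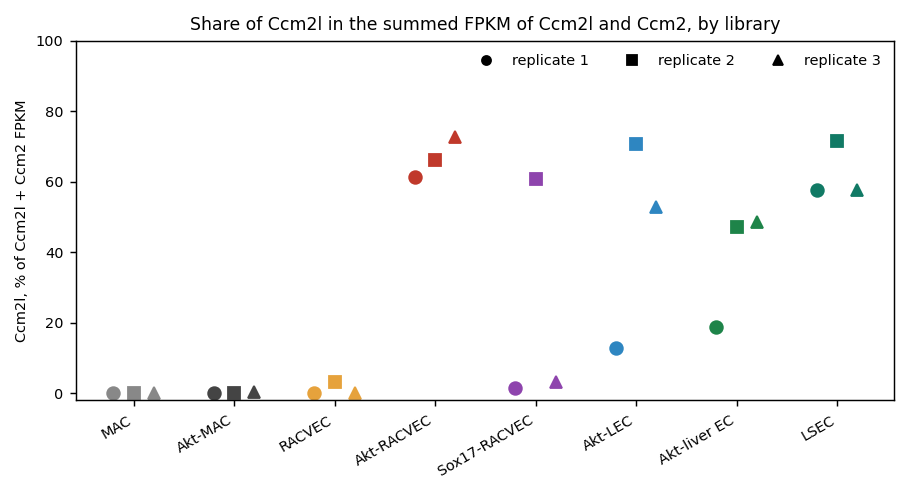
Ccm2l as a percentage of the summed FPKM of Ccm2l and Ccm2 in each library, by group, with symbols for replicates 1 to 3. All Akt-RACVEC and LSEC libraries lie between 57.7% and 72.7%, and all MAC, Akt-MAC and RACVEC libraries at or below 3.10%.

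Heg1, the receptor, varied within groups as much as between them. Its libraries had 35.7, 147 and 154 in MACs, 144, 391 and 142 in RACVECs, and 229.6, 137 and 407 in Akt-RACVECs. These ranges overlapped. The order of the means ran from Akt-RACVECs (258 ± 137) over Akt-LECs, Sox17-RACVECs, RACVECs, Akt-liver ECs, Akt-MACs and MACs to LSECs (110.3 ± 11.2), and no step exceeded the larger SD. The coefficient of variation was 10.2% in LSECs and between 27.5% and 70.7% in the other groups.

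Rasip1, the Rap1 effector, was low in amniotic cells that had not been converted. Its FPKM was 2.90, 2.09 and 6.18 in MACs and 6.87, 1.38 and 0.78 in Akt-MACs. RACVECs spanned a wide range of 36.0, 214 and 11.8, all above the MACs, and Akt-RACVECs had 611, 923 and 679, all above the RACVECs. Akt-LECs had 246, 716 and 685, Akt-liver ECs 259, 819 and 799, and LSECs 395, 439 and 404. The lowest values of both cultured EC groups again came from their replicate 1. In Sox17-RACVECs it was 58.4, 556 and 85.1, and without the library labelled Sox17-RACVEC 2 the mean was 71.8 in place of 233, inside the RACVEC range. The order was Akt-RACVECs, Akt-liver ECs, Akt-LECs, LSECs, Sox17-RACVECs, RACVECs, MACs and Akt-MACs, with no step larger than the larger SD of its neighbours, although RACVECs and MACs did not overlap.

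Arhgap29, the GTPase-activating partner of Rasip1, was already present in amniotic cells. Its FPKM was 373, 209.8 and 40.3 in MACs and 94.6, 32.9 and 72.1 in Akt-MACs. In RACVECs it was 359.6, 575 and 501, of which the lowest lay below MAC 1. The other groups had means between 453 ± 111.5 in LSECs and 678 ± 303 in Akt-liver ECs, and Sox17-RACVECs were uniform with 658, 631 and 668. From the top the order was Akt-liver ECs, Sox17-RACVECs, Akt-LECs, Akt-RACVECs, RACVECs, LSECs, MACs and Akt-MACs, and only the step from LSECs to MACs exceeded the larger SD. The FPKM of Arhgap29 exceeded that of Rasip1 in each of the 9 MAC, Akt-MAC and RACVEC libraries and in every Sox17-RACVEC library. Arhgap29 was also the higher of the pair in LSEC 1 and 3, Akt-liver EC 1 and 2, Akt-LEC 1 and Akt-RACVEC 1. Rasip1 was the higher in LSEC 2, Akt-liver EC 3, Akt-LEC 2 and 3 and Akt-RACVEC 2 and 3.

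Shank3, the scaffold protein, was at 9.49, 3.96 and 4.58 in MACs and 2.72, 3.33 and 1.76 in Akt-MACs. RACVECs had 27.3, 26.8 and 79.3, and Akt-RACVECs 207, 432 and 248.9. These 4 groups did not overlap with each other. Akt-LECs had 87.1, 268 and 164, Akt-liver ECs 85.1, 410.3 and 157, and LSECs 92.2, 129.8 and 115. In Sox17-RACVECs it was 191, 248.9 and 40.0. Here replicate 1 was also above every RACVEC library, and the mean without the library labelled Sox17-RACVEC 2 was 116 in place of 160.0. The order was Akt-RACVECs, Akt-liver ECs, Akt-LECs, Sox17-RACVECs, LSECs, RACVECs, MACs and Akt-MACs, in which the last 3 steps, from LSECs down, exceeded the larger SD. Of 6 neuronal markers, 4 were above 0 in at least 1 library of the Akt-RACVECs, the group with the highest Shank3. Their means there were 15.6 for Tubb3, 4.33 for Stmn2, 2.65 for Syn1 and 0.18 for Rbfox3, which was at 0 in MACs. Snap25 and Map2 were at 0 in all 3 Akt-RACVEC libraries. The sum of the list was between 2.70 and 54.8 in Akt-RACVECs and between 81.6 and 1574 in MACs. The part of neuronal cells in the level of Shank3 was not tested.

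RACVECs were set against MACs to describe the conversion. The Ets factors and the change from amniotic to endothelial medium came together in RACVECs and cannot be told apart. Differences are of the means of log2(FPKM + 1), which understates changes of low values, and a gene was called when limma gave a Benjamini-Hochberg adjusted p below 0.05 and a difference past 1 or -1 over 14964 genes. Rasip1 was higher by 3.40 ± 0.88 (SE, 95% interval 1.55 to 5.25) and Shank3 by 2.59 ± 0.64 (1.25 to 3.93). They were the 2 members called higher, and 0 were called lower, where 1.36% of all genes were called higher and 1.35% lower. The members were chosen by these values and nothing is read from the count, which was 0 without MAC 2, MAC 3 or RACVEC 2, 1 without RACVEC 1 or RACVEC 3, and 0 with only these 2 groups fitted, with a pseudocount of 10 or by the criterion of the study's methods. Arhgap29 differed by 1.67 ± 0.58 and Heg1 by 1.09 ± 0.61 with overlapping libraries, and Ccm2l by 0.78 ± 1.15. The median over the 8 members was 0.93 beside 0 over all genes.

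Of the other 99 genes of the same pathways, 94 could be tested, and 9 were called higher and 0 lower in RACVECs. Most belonged to the Rap1 module, where 5 of 15 genes were called. Rasgrp3, an exchange factor that loads Ras and Rap1 with GTP, was at 1.09, 0.58 and 0.97 in MACs and 101.1, 297 and 57.0 in RACVECs, a log2 difference of 6.02 (limma, adjusted p = 0.000760). The Rap1 exchange factor Rapgef5 had a difference of 4.79 (limma, adjusted p = 0.0283) and the cAMP-activated Rapgef3 (Epac1) of 1.78 (limma, adjusted p = 0.0183). The further calls of the module were Rapgef1 and the junctional Rap1 effector Afdn. Among 18 polarity and apical membrane genes, 2 rose, the endothelial cadherin Cdh5, also one of the 10 endothelial markers, by 9.22 (limma, adjusted p = 1.92e-09) and Podxl, which coats the apical surface and lines the opening lumen, by 5.10 (limma, adjusted p = 0.00449). Podxl was at 2.03, 0.42 and 16.0 in MACs and at 223, 65.9 and 196.9 in RACVECs.

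The Cdc42 exchange factor Fgd5 rose by 4.53 (limma, adjusted p = 0.0205). It had been placed here in the list of 16 Ccm partners and STRIPAK genes and was the 1 call of that list. Its RACVEC libraries had 4.13, 177 and 39.9, so that the lowest stayed near the MACs at 1.18, 0 and 0.39. Among 11 tested Shank partners the Pak-binding exchange factor Arhgef7 was called. No gene of the Mekk3 cascade was called. Its kinase Map3k3 itself had 71.0, 87.9 and 94.97 in MACs and 136, 181 and 139 in RACVECs, a difference of 0.84 below the threshold of 1. Klf2, a transcription factor downstream of Mekk3, differed by 2.70 with an adjusted p of 0.121 by limma. The pathway count was 4 when RACVEC 2 was left out and 2 when only RACVECs and MACs were fitted.

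**Figure D4:**
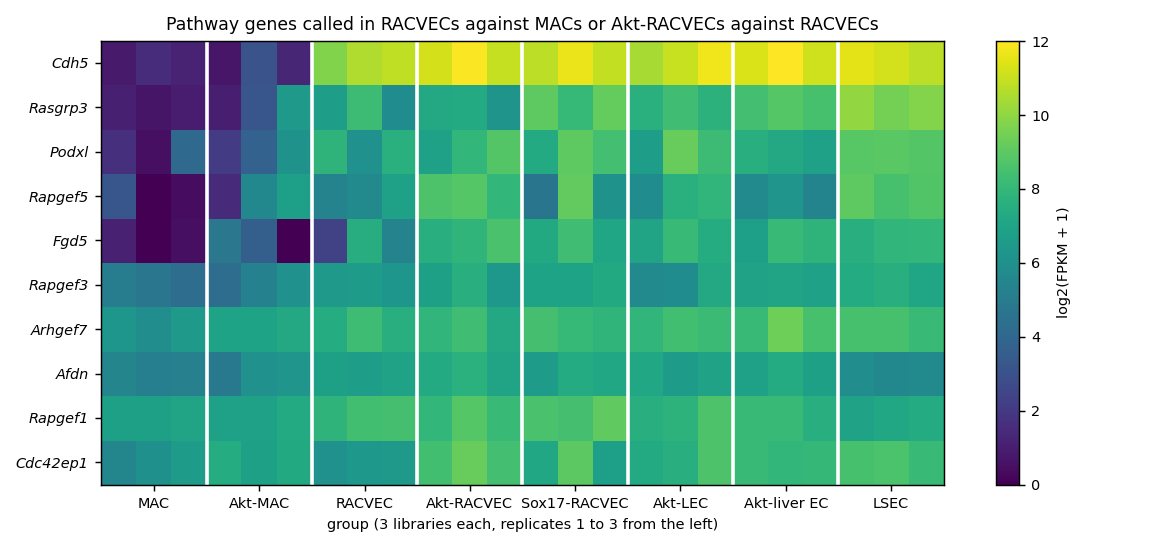
log2(FPKM + 1) of the 9 pathway genes called in RACVECs against MACs and of Cdc42ep1, called in Akt-RACVECs against RACVECs, in the 24 libraries. Columns are libraries, 3 per group with replicates 1 to 3 from the left. Cdh5 and Rasgrp3 are low in all MAC libraries and high in all RACVEC libraries, and Cdc42ep1 is higher in all Akt-RACVEC than in all RACVEC libraries.

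Akt-RACVECs were compared with RACVECs, to which Akt was added by design. The groups also differed in Erg, by 6.73 (limma, adjusted p = 0.0363), and in Sox17, by 5.49 (limma, adjusted p = 0.0423), and these differences and Akt cannot be told apart. For Erg this departs from the paper, which reports from qPCR that Akt left the transcripts of the Ets factors unchanged. The sum of the 10 endothelial markers was 2224 to 4591 in RACVECs and 13978 to 22518 in Akt-RACVECs, and that of the 10 smooth muscle and mesenchymal markers 2584 to 5119 and 6.12 to 405. The sum of 6 epithelial markers was 131 to 1177 and 0 to 38.7, with Epcam and Cdh1 at 0 in both groups. The part of these marker differences in the members' values was not tested. Ccm2l was higher by 7.24 ± 1.15 (SE, 95% interval 4.82 to 9.66), Rasip1 by 3.96 ± 0.88 (2.11 to 5.81) and Shank3 by 2.83 ± 0.64 (1.49 to 4.17), each without overlap. Since 2 of 3 RACVEC libraries were listed at 0 for Ccm2l, its difference depends on the pseudocount, from 9.54 with 0.1 to 4.58 with 10, and no fold change is given. Ccm2l was the 1 member called higher, against 0.221% of all genes, and 0 members were called lower, against 0.0401%. The count was 0 without RACVEC 1, RACVEC 3 or Akt-RACVEC 2 and with only these 2 groups fitted, and 2 without RACVEC 2. With the library labelled Sox17-RACVEC 2 left out of the shared fit the differences were the same, but the spread was smaller and Ccm2l, Rasip1 and Shank3 were all called. In that fit 1.54% of all genes were called higher and 0.902% lower, 231 and 135 genes in place of 33 and 6. Krit1 was higher in every Akt-RACVEC library, by 0.42 ± 0.19, and the differences of the other members were 0.09 ± 0.20 for Ccm2, 0.18 ± 0.25 for Pdcd10, 0.22 ± 0.61 for Heg1 and -0.04 ± 0.58 for Arhgap29.

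Among the pathway genes, Cdc42ep1, a Cdc42 effector that shapes the actin cytoskeleton, was the 1 call. It had 65.5, 82.7 and 90.8 in RACVECs and 336, 596 and 344 in Akt-RACVECs, a difference of 2.36 (limma, adjusted p = 0.0348). Without the library labelled Sox17-RACVEC 2 there were 5 calls, all higher. These were Nos3, the endothelial nitric oxide synthase, by 7.30 (limma, adjusted p = 0.000578 without that library and 0.0611 with it), the transcription factor Mef2c by 3.23 (0.00289 and 0.0615), the Rap1 GTPase-activating protein Sipa1 by 2.10 (0.0209 and 0.0556), the protease Adamts5 by 2.34 (0.0367 and 0.355) and Cdc42ep1. Of these, Nos3, Mef2c and Adamts5 belong to the list of the Mekk3-Erk5-Klf cascade. Nos3 was at 0.87, 0 and 2.46 in RACVECs and at 898, 62.3 and 444 in Akt-RACVECs. Klf2 had 172, 151 and 637 in RACVECs and 2485, 1039 and 1458 in Akt-RACVECs, which did not overlap, but its difference of 2.60 was not called in either fit (adjusted p = 0.180 with all libraries).

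Sox17-RACVECs were compared with RACVECs in the same fit. No member was called, where 0% of genes were called higher and 0.00668% lower, and 2 members passed that difference at an unadjusted p below 0.05. Across all genes 198 higher and 506 lower did so. The difference of Ccm2l was 3.20 ± 1.15 (SE) with all libraries and 1.30 without the library labelled Sox17-RACVEC 2. For Rasip1 it was 1.60 ± 0.88 and 0.62, and for Shank3 1.65 ± 0.64 and 1.16. Without that library 0.0401% of genes were called higher and 0.02% lower, and again 0 members. Of 94 pathway genes, 0 were called in either fit. Arhgap29 was higher in all 3 Sox17-RACVEC libraries, by 0.47 ± 0.58.

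Akt without transduced Ets factors was followed in Akt-MACs against MACs. Etv2 and Erg were at 0 in both groups, but Fli1 was at 2.36, 30.2 and 84.4 in Akt-MACs and at 0, 1.61 and 0.65 in MACs. Fli1 was called higher by 3.67 (limma, adjusted p = 0.0109), and the source of this RNA and its part in the values below were not tested. No member was called, where 2.59% of genes were called higher and 0.214% lower. A difference past 1 or -1 at an unadjusted p below 0.05 was reached by 1 member, lower. Likewise 0 of 94 pathway genes were called. Of these, 8 higher and 2 lower passed a difference of 1 or -1 at an unadjusted p below 0.05. Across all genes 1128 higher and 327 lower did so. The median shift of a library over all genes was on average 0.14 higher on the log2 scale in Akt-MACs than in MACs, and some differences are also given after scaling each library by its shift. Arhgap29 differed by -1.26 ± 0.58 (SE), or -1.40 after scaling, with overlapping libraries, and its value was -2.18 without MAC 3 and -0.59 without MAC 1. Shank3 was lower in every Akt-MAC library, by -0.90 ± 0.64, or -1.01 after scaling. Rasip1 differed by -0.46 ± 0.88. Akt-MAC 2 and 3, with the highest macrophage sums, had the 2 lowest values of Rasip1.

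Akt-LECs, the cultured lung endothelium, were compared with RACVECs. These groups differ in tissue of origin, in the Akt lentivirus and in the transduced Ets factors. Erg was also higher by 5.96 and Sox17 by 5.38 in Akt-LECs. The parts of these differences in the values below cannot be told apart. Ccm2l was higher by 5.91 ± 1.15 (SE, 95% interval 3.49 to 8.33), and this difference was 6.98 without Akt-LEC 1. Rasip1 was higher by 3.41 ± 0.88 and Shank3 by 1.98 ± 0.64, both without overlap. Ccm2l was the 1 member called higher and 0 were called lower, where 0.234% of genes were called higher and 0.0267% lower. The count was 0 without Akt-LEC 2, Akt-LEC 3, RACVEC 1 or RACVEC 3 and with only these 2 groups fitted, and 2 without RACVEC 2. Of the pathway genes 0 were called, and 6 higher and 2 lower passed a difference of 1 or -1 at an unadjusted p below 0.05. Across all genes 615 higher and 550 lower did so. Without the library labelled Sox17-RACVEC 2, 0.515% of genes were called higher and 0.154% lower, and the pathway calls were Nos3, Mef2c and Cdc42ep1, all higher, while Ccm2l was again the 1 member. This comparison and those of Akt-RACVECs and Sox17-RACVECs share the 3 RACVEC libraries, so their results are not independent of each other.

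**Figure D5:**
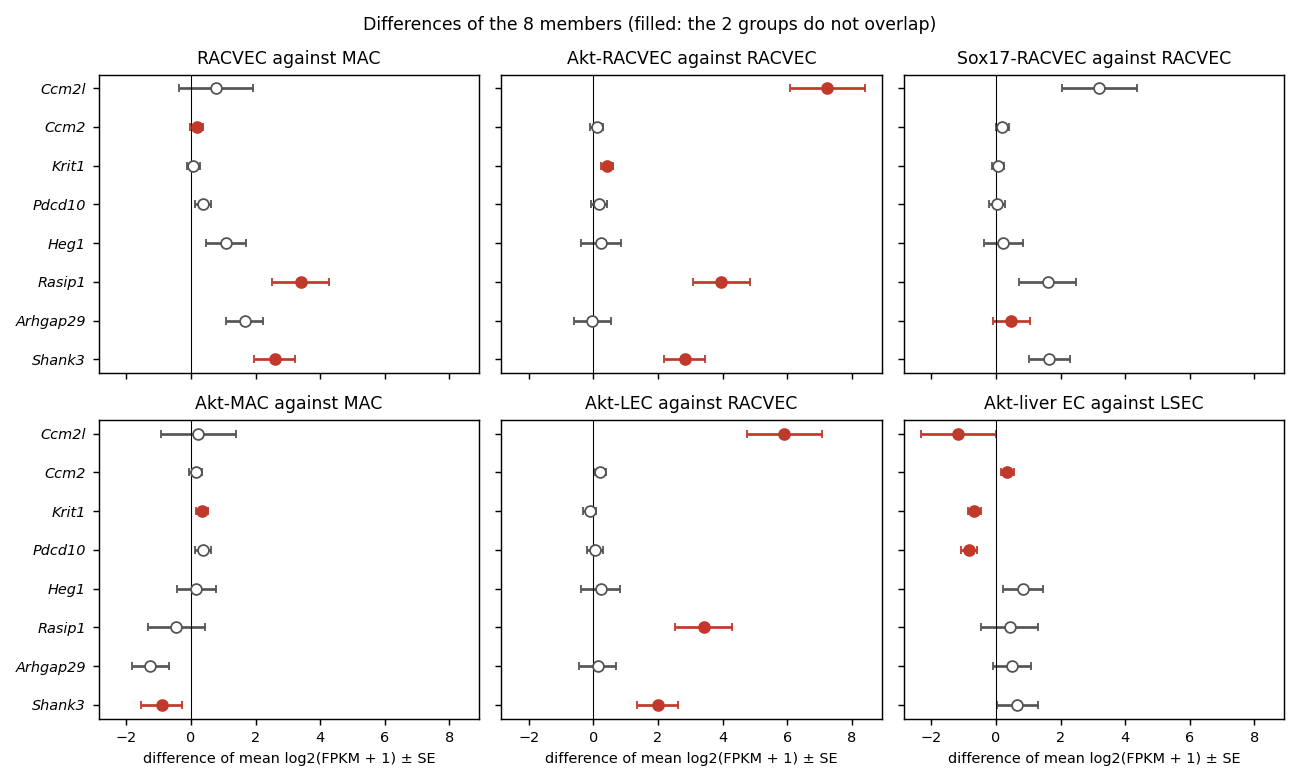
Difference of the mean log2(FPKM + 1) with its SE for the 8 members in the 6 comparisons. Filled symbols mark members whose 2 groups do not overlap. The 3 largest differences, all over 3.9, are those of Ccm2l in Akt-RACVECs and in Akt-LECs and of Rasip1 in Akt-RACVECs.

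Cultured Akt-liver ECs were compared with directly purified LSECs. All Akt-liver EC libraries lay below all LSEC libraries for Pdcd10, by -0.83 ± 0.25 (SE), for Krit1, by -0.67 ± 0.19, and for Ccm2l, by -1.17 ± 1.15, and above them for Ccm2, by 0.35 ± 0.20. Without Akt-liver EC 1, which carried mesenchymal and other non-endothelial markers, the difference of Ccm2l was -0.51. No member was called, where 14.1% of genes were called higher and 12.9% lower. The count of members that passed a difference of 1 or -1 at an unadjusted p below 0.05 was also 0. Across all genes 2449 higher and 2216 lower did so. The differences of Heg1, Rasip1, Arhgap29 and Shank3 were between 0.42 and 0.83, with overlapping libraries.

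Of the 94 pathway genes, 19 were called higher and 4 lower, or 20.2% and 4.26%, beside 14.1% and 12.9% of all genes. The largest increases were in Thbs1, a secreted inhibitor of angiogenesis, by 6.87 (limma, adjusted p = 0.00670), the polarity gene Pard6g by 4.10 (0.0255), the GTPase-activating protein Stard13 by 3.94 (0.000963), the atypical protein kinase C Prkcz by 3.44 (0.00480), Adamts5 by 3.43 (0.0353) and the polarity scaffold Pard3 by 3.29 (2.81e-05). Thbs1 was at 3.98, 4.56 and 11.6 in LSECs and at 4450 in Akt-liver EC 1 but 241 and 516 in the other 2. Genes called lower were the Rac exchange factor Tiam1 by -4.25 (limma, adjusted p = 0.000968), Baiap2 by -1.83 (0.00179), Pard3b by -1.36 (0.0318) and the STRIPAK gene Sike1 by -1.04 (0.000915). By list, 5 of 18 polarity genes, 4 of 11 Shank partners, 3 of 16 genes of the Mekk3 cascade and 2 of 15 genes of the Rap1 module were called higher. Culture and Akt, the other cells in the LSEC preparations and the isolation method all differ between these groups and cannot be told apart.

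The genes most like each member were taken by Pearson's r of log2(FPKM + 1) over the 24 libraries, among genes averaging an FPKM of 10 or more. The libraries share groups, so r is a description. For Ccm2l they were Ushbp1 (0.97) and Gimap1 (0.97), for Rasip1 Gimap5 (0.97) and Tie1 (0.96), and for Shank3 She (0.96) and Sh2d3c (0.95). For Arhgap29 they were Zfp280c and Prkd2, both at 0.89, and for Pdcd10 Prpf18 and Ly96, both at 0.85. Heg1 was most like Etv6 and Gm13498 (0.80 each), Krit1 most like Gosr1 (0.80) and Pigg (0.79), and Ccm2 most like Vac14 (0.77) and Ccdc125 (0.74). Between members, r was 0.92 for Ccm2l and Rasip1, 0.91 for Rasip1 and Shank3, 0.83 for Ccm2l and Shank3 and 0.74 for Rasip1 and Arhgap29. It was 0.39 for Ccm2l and its paralogue Ccm2, and -0.31 for Ccm2 and Krit1, which bind each other in the complex.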

How the data were processed

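PolyA RNA of 24 mouse libraries, 3 in each of 8 groups taken from the labels, was sequenced by the authors as paired reads and mapped with TopHat to mm9. The authors deposited FPKM from Cufflinks per RefSeq transcript, scaled to the upper quartile and corrected for sequence bias. Versions and read numbers are not given in the sources used here, so no counting error can be stated. Low values held no recoverable whole reads.

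Of 27583 transcripts, 26934 were joined to a symbol with a RefSeq gene table, the others were kept as genes of their own, and transcripts of a symbol were summed. Groups were compared on log2(FPKM + 1) with limma 3.58.1 (R 4.3.3), in 1 fit over 8 groups with a variance trend, over 14964 genes averaging an FPKM of 1 or more, with two-sided tests and Benjamini-Hochberg adjustment. The method was tested on simulated data. Promoter windows and figures used Python 3.11.15, pandas 2.3.3 and matplotlib 3.10.9. The members and gene lists were chosen with earlier results of these data known. Pathway genes were named when called, at most 6 per direction with the largest difference, and for each member the 2 most alike genes. GGAA was added to the motifs, and Map3k3, Klf2, Nos3, Mef2c, Sipa1, Adamts5 and genes called beyond the 6 were named, after their values were seen. Of 9 macrophage markers, 8 were found in the joined table. Proteins are not analysed here. Some items of the gene lists and positions are not reported here.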

Additional observations from a re-analysis of the deposited data

Results flagged for a closer look

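The difference between groups with and without Akt, Akt-RACVECs against RACVECs minus Akt-MACs against MACs, went in opposite directions for 2 of the 102 members and pathway genes tested. Shank3 was higher in every Akt-RACVEC library than in every RACVEC library and lower in every Akt-MAC than in every MAC library. The 2 differences were apart by 3.73 ± 0.90 on the log2 scale (SE), and as it is a member no p is given. Llgl1, a polarity gene, showed the same pattern with a difference of 1.05 ± 0.24 (limma interaction, adjusted p = 0.1004), which was not called. Over all 14964 genes, 138 (0.922%) moved in opposite directions without overlap in this way. By the call 15 differed, and 1516 passed a difference of 1 or -1 at an unadjusted p below 0.05. Groups of 3 are too small to look for single distant libraries.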

How the results depend on the processing

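Of 198 alternatives computed for counts of called genes, 148 gave a count within 1.5 times the main one, and so did all those for Sox17-RACVECs. No difference of a called member changed sign in the alternatives computed for it. Members that were not called could change sign. Ccm2 in RACVECs against MACs differed by 0.17 as a gene and by -1.27 for its second transcript alone. The cause of the other changes in count was not tested, apart from fewer libraries or groups in the fit. For RACVECs against MACs, the 2 members were 0 with a pseudocount of 10, with only the groups compared and by the criterion of the study's methods, and the 9 pathway genes were 2 with only the groups compared. For Akt-RACVECs against RACVECs, the 1 member became 3 with a pseudocount of 10, with genes averaging an FPKM of 10 or more and without the library labelled Sox17-RACVEC 2, 2 by the study's criterion and 0 with only the groups compared, while the 1 pathway gene became 2, 2, 5, 4 and 0. For Akt-LECs against RACVECs, the 1 member became 0 with a pseudocount of 10, with only the groups compared and by the study's criterion. Its 0 pathway genes became 1 by that criterion and 3 without the library labelled Sox17-RACVEC 2. For Akt-MACs against MACs, the 0 pathway genes became 2 by the study's criterion.

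With single libraries of the groups compared left out, members called ranged from 0 to 2 in RACVECs against MACs, 0 to 2 in Akt-RACVECs against RACVECs, 0 to 2 for Akt-LECs against RACVECs, 0 to 1 for Akt-MACs against MACs and 0 to 1 for Akt-liver ECs against LSECs. Pathway genes under the same left-out libraries ranged from 4 to 9, 0 to 1, 0 to 0, 0 to 3 and 15 to 22. Members were at 0 without MAC 2, MAC 3 or RACVEC 2 and at 1 without RACVEC 1 or RACVEC 3 in the first comparison. In the second they were at 0 without RACVEC 1, RACVEC 3 or Akt-RACVEC 2 and at 2 without RACVEC 2, and in the third at 0 without Akt-LEC 2, Akt-LEC 3, RACVEC 1 or RACVEC 3 and at 2 without RACVEC 2. Members rose to 1 without MAC 3 for Akt-MACs and to 1 without LSEC 2 for Akt-liver ECs. The pathway counts left the band without RACVEC 2 in the first comparison (4) and without LSEC 1 in the last (15). They were 0 without RACVEC 1, RACVEC 3, Akt-RACVEC 2 or Akt-RACVEC 3 in the second, and 3 without MAC 3 or Akt-MAC 1 for Akt-MACs. For the difference of the Akt effects, 0 members and pathway genes were called, and 0 to 5 with single libraries left out, with 5 without Akt-MAC 1. Differences of members moved with the pseudocount for Ccm2l, and for Shank3 in RACVECs against MACs, from 2.59 to 1.65 with a pseudocount of 10.

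The labels number the replicates alike in all groups, but they do not state whether libraries of the same number are paired. Deviations of same-numbered libraries correlated between -0.20 and 0.26, and not every pair of a comparison was above 0.1. Headers of some MAC and RACVEC files hint at other pairs, which the labels do not give and which were not used. With the replicate block in a fit of only the groups compared, 0 members and 0 pathway genes were called in RACVECs against MACs, 0 and 0 in Akt-RACVECs against RACVECs and 0 members for Akt-LECs against RACVECs. The smallest adjusted p over all genes was 0.262, 0.289 and 0.446 in these fits.

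Settings added after seeing the data were leaving out the library labelled Sox17-RACVEC 2, leaving out Akt-LEC 1 and Akt-liver EC 1 together, which gave 1 and 0 members and 0 and 20 pathway genes, and the alternatives for the difference of the Akt effects. Without read numbers, low values such as those of Ccm2l in RACVECs have no known precision.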
